A study of Mus musculus with 13 samples.

Results

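The mouse microRNAs (miRNAs) mmu-miR-721, mmu-miR-5126, mmu-miR-5128, mmu-miR-211-3p, mmu-miR-706 and mmu-miR-3472, all little characterised and written below without the species prefix, are described here across normal thymocytes and Notch1-driven T-cell acute lymphoblastic leukaemia (T-ALL). They are 6 of the 1122 mouse miRNAs on the array and were chosen by their higher signal in primary T-ALL than in thymocytes on these same arrays. That difference is therefore given as a description with no test. The choice used no numeric threshold. The data are 13 one-colour Agilent arrays. Thymocytes were sorted from C57BL/6 thymus as CD4-CD8- (DN) or CD4+CD8+ (DP) cells. T-ALL cells of an early stage (ES) or a late stage (LS) were sorted as CD4+CD8+ from C57BL/6 spleen, in chimeras made with bone marrow transformed by N1ICD. N1ICD is the intracellular domain of Notch1, which signals without ligand. Each of these 4 groups has 3 arrays, which the submitters call biological replicates, and no age of the mice is used here. M295, a cultured T-ALL line of C57BL/6 origin, has 1 array. All thymocytes came from thymus and all primary T-ALL cells from spleen, so that tissue and disease cannot be told apart, and the construct that carried N1ICD and the number of mice behind an array are not given in the sources used here.

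A mature miRNA is a short RNA that guides an Argonaute protein to messenger RNAs, chiefly by pairing of its seed, bases 2 to 8, and lowers their translation and stability. It is cut from 1 arm of a hairpin precursor, and the opposite arm (5p or 3p) is often the less abundant product. In developing T cells, miRNAs such as those of the miR-181 family tune signalling through the T-cell receptor, and Notch1 signalling drives commitment to the T-cell lineage and, when constantly active, T-ALL. For the miRNAs described here, the name on the array rests on small-RNA sequencing or cloning, and few targets are established.

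All 6 matched a mature sequence in the RefSeq miRNA table (build GRCm38.p6). The sequences are shown 5′ to 3′ with the seed in capitals, because the seed decides which known miRNA family, if any, a little-known name belongs to.
miR-721: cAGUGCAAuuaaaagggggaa
miR-5126: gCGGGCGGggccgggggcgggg
miR-5128: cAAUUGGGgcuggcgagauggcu
miR-211-3p: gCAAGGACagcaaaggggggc
miR-706: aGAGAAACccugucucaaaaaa
miR-3472: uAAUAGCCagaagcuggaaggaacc
miR-130b-3p: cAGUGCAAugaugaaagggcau
miR-301a-3p: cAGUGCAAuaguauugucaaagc
miR-211-5p: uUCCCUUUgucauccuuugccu
The last 3 are shown for comparison. miR-130b-3p and miR-301a-3p share the seed AGUGCAA and the first 9 bases with miR-721, and miR-211-5p is the other arm of the hairpin that gives miR-211-3p.

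No seed was shared between any pair of the 6 miRNAs. Besides miR-721, none of them shared its seed with another entry of the table. Their base composition was as varied. Of the 22 bases of miR-5126, 100% were G or C and 77.3% were G, and it was the only 1 of the 1679 mature mouse miRNAs in the table with no A or U and the richest in G. The G and C content was 66.7% in miR-211-3p, 60.9% in miR-5128, 48.0% in miR-3472, 42.9% in miR-721 and 36.4% in miR-706, against a median of 52.2% in the table. The longest run of G was 6 bases in miR-211-3p, 5 in miR-721 and in miR-5126, 4 in miR-5128, 2 in miR-3472 and 1 in miR-706.

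Each of the 6 loci lies within the bounds of a protein-coding gene of the RefSeq gene table, and each is on a different chromosome. Neither the exon bounds nor the strands of these genes were used here, so a locus within a gene need not be part of its transcript. The mature miR-721 lies at chr5:136375777-136375797 on the minus strand, within Cux1, which encodes a homeodomain transcription factor. miR-5126 is at chr1:84695890-84695911 on the plus strand, within Dner, which encodes a transmembrane protein related to the Notch ligands. miR-5128 is at chr2:37688212-37688234 on the minus strand, within Strbp, which encodes an RNA-binding protein of spermatids. The 3p arm of miR-211 is at chr7:64205868-64205888 on the plus strand, within Trpm1, a cation channel gene of melanocytes and retina, and its other arm is at chr7:64205831-64205852. miR-706 is at chr6:120034290-120034311 on the minus strand, within Wnk1, a kinase gene of ion transport. miR-3472 is at chrX:145039390-145039414 on the plus strand, within Rtl4, a gene derived from a retrotransposon. For comparison, miR-130b-3p lies at chr16:17124071-17124092 on the minus strand and miR-301a-3p at chr11:87113054-87113076 on the plus strand.

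The first 15 bases of each sequence printed above were also sought, on both strands and without the miRNA's own locus, in 32815 windows of the RefSeq table of promoters. Those of miR-706 occurred in 46 windows, which is 0.140% of them, and 4 of the 1679 mature miRNAs, itself included, occurred in as many. Those of miR-5126 occurred in 6 windows and those of miR-3472 in 3, while those of miR-721, miR-5128 and miR-211-3p occurred in none. Only exact matches of these first 15 bases were counted. Later bases and the genome outside the windows were not searched, so a count of none does not show that a sequence is free of repeats. Of all 1679 mature miRNAs, 126 (7.50%) had at least 1 such match.

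Signals are given as scaled log2 intensity. The background-subtracted fluorescence of a miRNA was divided by the 75th percentile of its array and put on the log2 scale, so that 0 is the level of that percentile and a step of 1 is a doubling. The floor of the scale is -7.59. Levels are compared between arrays within a miRNA and not between miRNAs, because probes differ in brightness. On the whole series, 229 miRNAs were tested because some group had them above background on each of its 3 arrays, and all 6 described here were among them. In the limma fit of T-ALL against thymocytes 31.4% of the 229 were higher and 25.8% lower at an adjusted p under 0.05. ES 1 stood apart with 115 miRNAs above background, against 157 to 244 on the other primary arrays, and with negative controls that varied with an SD of 19.0 intensity units, where no other array exceeded 7.11. No spot was saturated.

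miR-721, which shares a seed with the miR-130 and miR-301 family, was above background on 4 of 6 thymocyte arrays and on all 6 primary T-ALL arrays. The 3 DN arrays gave -5.83, -5.43 and -6.05 and the 3 DP arrays -5.83, -5.62 and -6.68, with DN 3 and DP 3 not above background. In ES the values were -2.99, -3.67 and -2.61, and in LS -1.20, -2.27 and -3.34, all above background. M295 gave -3.92. No T-ALL array overlapped with a thymocyte array, and the lowest of the 6, ES 2, lay 1.76 log2 units above the highest thymocyte array, DN 2. M295 lay between the primary T-ALL arrays and the thymocytes. The mean was -5.77 ± 0.31 for DN and -6.05 ± 0.56 for DP, and -3.09 ± 0.53 for ES and -2.27 ± 1.07 for LS (SD, n = 3 arrays each). T-ALL exceeded thymocytes by 3.23 (SE 0.36) on the log2 scale, a 9.37-fold difference.

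miR-3472, whose locus is on the X chromosome, was not above background on any of the 6 thymocyte arrays. DN 1, DN 3, DP 1 and DP 3 were at the floor of -7.59, and DN 2 and DP 2 gave -7.25 and -7.21. The ES arrays gave -5.08, -5.88 and -4.70, with ES 1 not above the background of that noisier array, and the LS arrays gave -3.09, -4.25 and -4.46. M295 gave -5.68. All T-ALL arrays lay above all thymocyte arrays, by at least 1.33 log2 units, and M295 lay within the range of ES. Group means were -5.22 ± 0.61 in ES and -3.93 ± 0.74 in LS (SD, n = 3 arrays each). Because thymocytes give only an upper limit, the size of the difference is not fixed. For a nominal size, each thymocyte array was raised to its own lowest above-background signal where its value was under it. With this background subtraction and the mean over both probes, T-ALL was then 7.02-fold higher. ES was 4.52-fold and LS 11.0-fold higher than DN, and 4.47-fold and 10.9-fold higher than DP. These are not lower limits, because that signal can be a mean that includes probes not above background. On DP 1 it was the signal of miR-706, at -7.34. A probe of miR-721 with 27.9 intensity units on DN 1 was not above background, whereas miR-3472 averaged 7.11 units there. The nominal sizes do not carry over to other processing. The log2 difference was 2.52 for 1 probe alone, 1.78 in the authors' deposited table and 0.80 with normexp background, beside a nominal 2.81. The means measured with the floor were -4.58 ± 0.93 in T-ALL and -7.47 ± 0.19 in thymocytes (SD, n = 6 arrays each).

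miR-5126, the miRNA made of G and C alone, was above background on all 13 arrays. The DN arrays gave -0.14, -0.05 and -0.35 and the DP arrays -0.88, -0.69 and -1.21. The ES arrays gave 0.54, 0.16 and 1.74, the LS arrays 2.51, 1.45 and 0.75, and M295 2.49. The lowest T-ALL array, ES 2, lay 0.21 log2 units above the highest thymocyte array, DN 2, so the groups were apart by less than the spread within T-ALL. DN averaged -0.18 ± 0.15, DP -0.93 ± 0.26, ES 0.81 ± 0.83 and LS 1.57 ± 0.89 (SD, n = 3 arrays each). The difference between T-ALL and thymocytes was 1.74 (SE 0.33) on the log2 scale, or 3.35-fold.

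miR-5128, the little-known product of a locus within Strbp, was also above background on every array. DN gave -3.72, -3.48 and -4.21 and DP gave -4.23, -4.05 and -4.66. ES gave -2.40, -3.26 and -0.05, LS gave -0.32, -2.01 and -2.75, and M295 gave -1.36. It had the widest spread within T-ALL of the 6 miRNAs, 3.22 log2 units between ES 2 and ES 3, which are replicates of the same group, while ES 2 lay 0.22 above the highest thymocyte array. DN averaged -3.80 ± 0.37, DP -4.31 ± 0.31, ES -1.90 ± 1.66 and LS -1.69 ± 1.24 (SD, n = 3 arrays each). The difference between T-ALL and thymocytes was 2.26 (SE 0.55), or 4.79-fold, and fell to 1.79 (SE 0.41) without ES 3.

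miR-211-3p comes from the hairpin whose 5p arm is the known melanocyte miRNA. DN gave -3.02, -2.86 and -3.10 and DP gave -3.96, -3.01 and -4.48. ES gave -1.66, -2.58 and -0.66, LS gave 0.22, -0.91 and -1.87, and M295 gave -0.20. The 3 DN arrays lay within 0.25 log2 units of each other, whereas DP spread over 1.48 and T-ALL over 2.80, and ES 2 lay 0.27 above the highest thymocyte array. DN averaged -2.99 ± 0.13, DP -3.82 ± 0.75, ES -1.64 ± 0.96 and LS -0.85 ± 1.04 (SD, n = 3 arrays each). T-ALL exceeded thymocytes by 2.16 (SE 0.42), or 4.47-fold. The 5p arm was above background on 2 of 6 thymocyte and 2 of 6 T-ALL arrays, with values of -7.59 to -5.71 in thymocytes and -7.51 to -5.02 in T-ALL, and was not tested. The related melanocyte and retina miRNAs miR-204-5p and miR-204-3p were at the floor on all 12 primary arrays.

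miR-706, the A-rich sequence with the matches in promoter windows, had thymocyte signals close to the floor. DN gave -7.31, -6.96 and -7.03 and DP gave -7.34, -7.02 and -7.35. ES gave -6.18, -6.50 and -4.52 and LS gave -4.26, -5.09 and -5.64, whereas M295 was at the floor of -7.59. All T-ALL arrays lay above all thymocyte arrays, by at least 0.46 log2 units, and M295 lay below every thymocyte array. The floor value of M295 is a mean over probes. The brightest probe alone was above background there, at -5.96, beside -5.49 to -4.91 for that probe in thymocytes. DN averaged -7.10 ± 0.18, DP -7.23 ± 0.19, ES -5.74 ± 1.06 and LS -5.00 ± 0.70 (SD, n = 3 arrays each). The difference between T-ALL and thymocytes was 1.80 (SE 0.34), or 3.48-fold, and rests on background-subtracted intensities of 9.68 to 17.5 units in thymocytes and 19.0 to 98.6 in T-ALL.

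**Figure D1:**
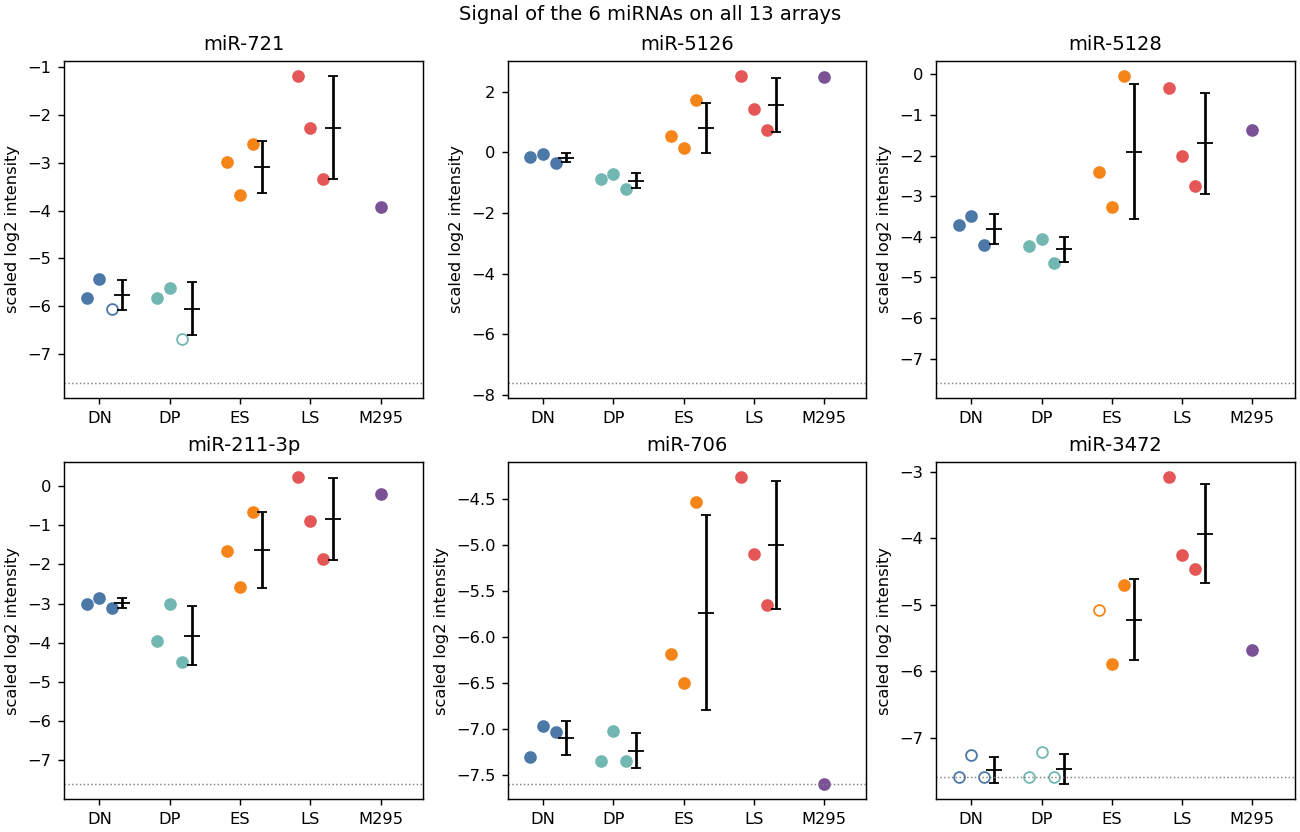
Scaled log2 intensity of the 6 miRNAs, 1 panel each, on all 13 arrays: points are arrays (open points are not above background), bars are the mean and SD of 3 arrays, and the dotted line is the floor of -7.59. In every panel all 6 primary T-ALL arrays lie above all 6 thymocyte arrays, by 0.21 log2 units for miR-5126 and 1.76 for miR-721, and M295 lies at the floor for miR-706 alone.

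For 6 of the 6 miRNAs every T-ALL array lay above every thymocyte array, which the choice of the miRNAs favoured, and which was so for 15.3% of all 229 tested. The order of group means was DP, DN, ES and LS from low to high for 5 of the 6, and miR-3472 could not be ordered between DN and DP because both were at or near the floor. The choice of the miRNAs favoured T-ALL above thymocytes in that order. DN lay above DP for 55.5% and LS above ES for 70.3% of all tested. Neither of these steps was called for any of the 5, and the step from ES to LS changed sign with the scaling for miR-5128 and miR-706. The differences of ES from DN were 2.68 for miR-721, 0.99 for miR-5126, 1.90 for miR-5128, 1.36 for miR-211-3p and 1.36 for miR-706 on the log2 scale. Those of LS from DP, the widest contrast, were 3.78, 2.49, 2.62, 2.96 and 2.23 in the same order. These comparisons share arrays. The median difference of the 6 between T-ALL and thymocytes was 2.21, beside -0.12 for all 229 tested.

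By their barcodes the arrays lie on 2 slides, and both slides hold all 4 groups. Within slide 1 the difference between T-ALL and thymocytes was 3.30 for miR-721, 1.67 for miR-5126, 1.98 for miR-5128, 2.26 for miR-211-3p, 1.81 for miR-706 and 3.02 for miR-3472, and within slide 2 it was 2.97, 1.82, 2.70, 2.10, 2.00 and 2.83. Every value was positive on both slides, which had to be so where every T-ALL array lay above every thymocyte array. Without ES 1, the noisy array, the differences were 3.20 for miR-721, 1.81 for miR-5126, 2.38 for miR-5128, 2.17 for miR-211-3p, 1.91 for miR-706 and 2.86 for miR-3472. Another background model moved the size for the dim miRNAs. With normexp the difference was 0.45 for miR-706, 0.80 for miR-3472 and 1.70 for miR-721, and T-ALL and thymocyte arrays then overlapped for miR-706 and miR-3472. In the authors' deposited table it was 0.94 for miR-706, 1.78 for miR-3472 and 2.36 for miR-721.

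In all, 16 probes measured the 6 miRNAs. Probes of a miRNA bind the same target and are not replicates of a condition. The 4 probes of miR-721, each with 10 spots, gave differences between T-ALL and thymocytes of 3.25, 3.16, 3.25 and 3.26 on the log2 scale, and correlated over the 12 primary arrays at r of 0.997 or higher. The 2 probes of miR-5126, with 20 spots each, gave 1.76 and 1.72, those of miR-211-3p 2.16 and 2.16, and those of miR-5128 2.24 and 2.26, although the first probe of miR-5128 was above background on 5 of the 12 arrays and the second on all 12. The 2 probes of miR-3472 gave 2.52 and 3.00 and were above background on 4 and 5 arrays. Both of these, and the first probe of miR-5128, were above background on no thymocyte array, so that their differences depend on the background there. The probes of miR-3472 were at the floor on 6 and 1 of the 12 arrays, so the floor enters their differences as well. The first probe of miR-5128 was at the floor on no array. Agreement between probes was part of the choice of the miRNAs and is a description.

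The probes of miR-706 differed from one another. The first was at the floor on all 12 arrays with a difference of 0.00 (SE 0.08), the second was above background on none and gave 0.11 (SE 0.12), the third was above background on 3 arrays and gave 1.44 (SE 0.35), and the fourth was above background on all 12 and gave 1.68 (SE 0.32). The higher level of miR-706 in T-ALL therefore rests on 2 of its 4 probes, and on 1 of them in thymocytes. With the median over probes in place of the mean, its difference was 0.78, and the lowest T-ALL array lay at -0.06 log2 units from the highest thymocyte array. The statement that separate probes agree, by which the miRNAs were chosen, does not hold for miR-706.

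**Figure D2:**
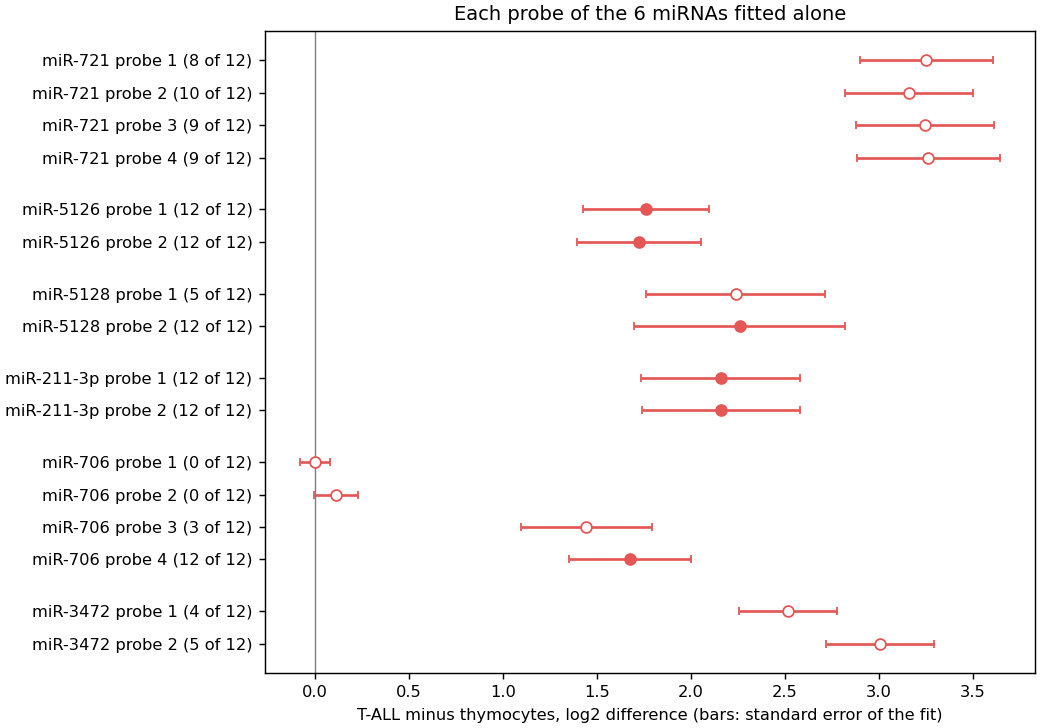
Log2 difference between T-ALL and thymocytes for each of the 16 probes fitted alone, with the standard error of the fit; the label gives the number of the 12 primary arrays on which the probe was above background, and filled points are above background on all 12. The 4 probes of miR-721 lie between 3.16 and 3.26, whereas the probes of miR-706 run from 0.00 to 1.68.

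The comparison of LS with ES asks whether the level differs between stages of the disease, and it was not used to choose 5 of the 6 miRNAs. None of these 5 differed at an adjusted p under 0.05 in limma, and 2.62% of all 229 did. Before adjustment 0 of the 5 had a p under 0.05, beside 14.8% of all tested. The mean was higher in LS for all 6, beside 70.3% of all tested, and the median difference was 0.77 for the 6 and 0.28 for all. That direction depended on the scaling. With scaling by all mouse miRNAs the median of all tested turned to -0.38, miR-5128 to -0.53 and miR-706 to -0.0063, and miR-5128 was also below 0 with quantile normalization (-0.018) and in the authors' deposited table (-0.082). The difference was 0.82 for miR-721 (95% interval -0.30 to 1.95, limma adjusted p = 0.401), 0.76 for miR-5126 (-0.28 to 1.80, adjusted p = 0.401) and 0.78 for miR-211-3p (-0.54 to 2.10, adjusted p = 0.499). It was 0.74 for miR-706 (-0.34 to 1.81, adjusted p = 0.427) and 0.21 for miR-5128 (-1.52 to 1.94, adjusted p = 0.944). These intervals include no difference as well as more than a doubling. For miR-3472, which was chosen with its level in LS known, the difference is a description: 1.29, with all 3 LS arrays above all 3 ES arrays, which was so for 8.73% of the 229 and for no other of the 6.

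The difference between the stages had opposite signs on the 2 slides for 5 of the 6. On slide 1, with LS 1 and LS 2 against ES 1 and ES 2, LS was higher by 1.60 for miR-721, 1.63 for miR-5126, 1.66 for miR-5128, 1.78 for miR-211-3p and 1.66 for miR-706. On slide 2, with LS 3 against ES 3 alone, LS was lower, at -0.73 for miR-721, -0.99 for miR-5126, -2.71 for miR-5128, -1.21 for miR-211-3p and -1.12 for miR-706, while miR-3472 was higher on both, by 1.82 and 0.23. Slide 2 holds 1 array of each stage, so its values have no replicate check and no test is given for them. The difference between slides was not tested. ES 3 decided calls: without it 55 miRNAs of all tested were called in place of 6, and miR-706 was higher in LS by 1.34 (limma adjusted p = 0.0235). The difference of miR-3472 without ES 3, again a description, was 1.55. Without LS 1 the differences of the 6 fell to between -0.48 for miR-5128 and 0.87 for miR-3472.

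**Figure D3:**
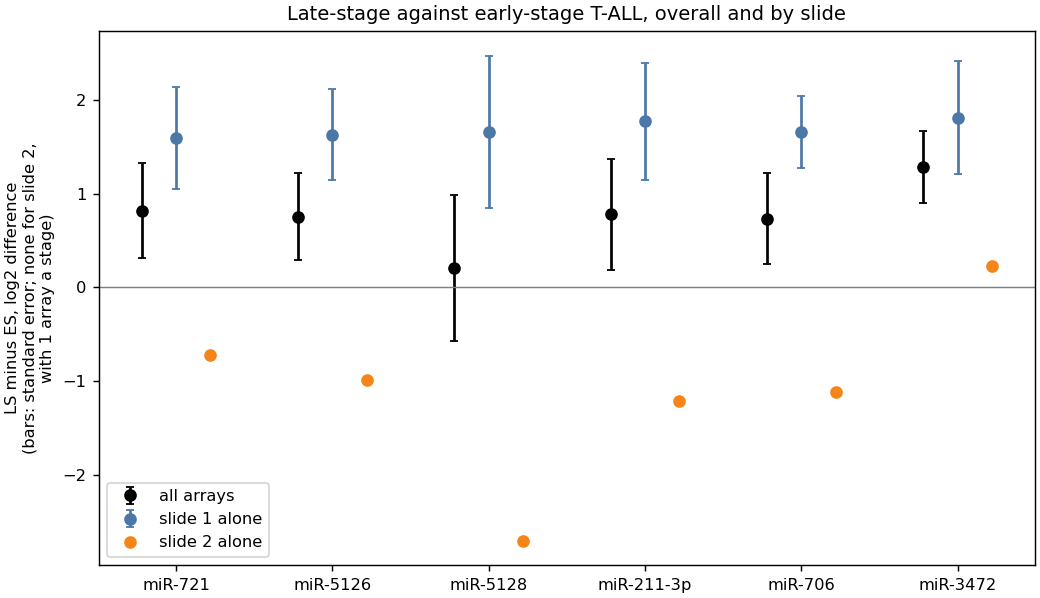
Log2 difference between late-stage and early-stage T-ALL for each of the 6 miRNAs, over all arrays and within each slide; bars are standard errors of the fit, and slide 2 has none because it holds 1 array of each stage. Slide 1 lies above 0 for all 6, from 1.60 to 1.82, and slide 2 lies below 0 for all but miR-3472, down to -2.71 for miR-5128.

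Which T-ALL array was high or low was largely shared among the 6 miRNAs. ES 2 was the lowest T-ALL array for all 6, beside 31.4% of all tested miRNAs, by 0.99 to 1.46 log2 units below the mean of a miRNA over the 6 arrays. LS 1 was the highest for 5 of them, beside 23.1% of all tested miRNAs, at 1.11 to 1.49 above that mean, and ES 3 was the highest for miR-5128, at 1.75. The mean deviation of the 6 miRNAs was -0.55 on ES 1, -1.21 on ES 2, 0.61 on ES 3, 1.39 on LS 1, 0.23 on LS 2 and -0.47 on LS 3. The median deviation of all 229 tested miRNAs ran from -0.42 on ES 1 to 0.17 on ES 3 and was -0.18 on ES 2 and 0.06 on LS 1. Over the 6 T-ALL arrays the 15 pairs of these miRNAs correlated at a median r of 0.90 (0.66 to 0.98), beside a median of 0.15 over all pairs of tested miRNAs. Over the 6 thymocyte arrays the median r was 0.70 (0.28 to 0.90), with no value over all tested pairs to set beside it. The lowest was that of miR-5126 with miR-3472, which was above background on no thymocyte array. These correlations describe 6 arrays that share slides and scaling, and the 6 miRNAs were chosen together.

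**Figure D4:**
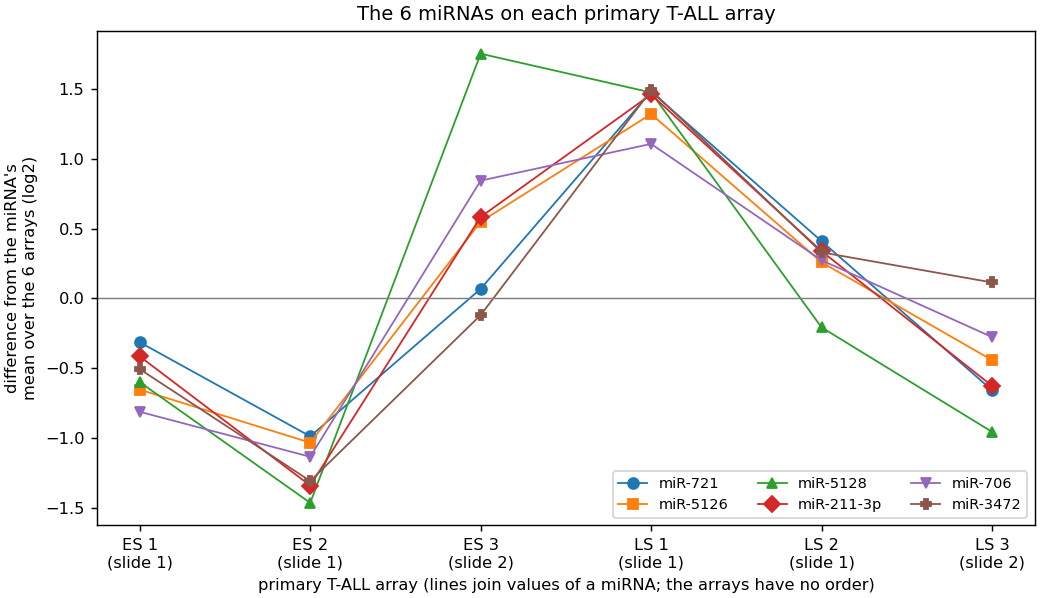
Difference of each of the 6 miRNAs from its own mean over the 6 primary T-ALL arrays, in log2 units, by array and slide; lines join the values of a miRNA and the arrays have no order. ES 2 is lowest for every miRNA (-1.46 to -0.99), LS 1 is highest for all but miR-5128, and ES 3 is highest for miR-5128 at 1.75.

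Between the thymocyte stages none of the same 5 differed at an adjusted p under 0.05 in limma, whereas 29.3% of all 229 tested miRNAs did. Before adjustment 0 of the 5 had a p under 0.05, beside 39.7% of all tested. Thymocyte signals of miR-706 were close to the floor, and miR-721 was not above background on DN 3 and DP 3. A step between the stages could hardly show for these 2. The mean was higher in DN for 5 of the 6, beside 55.5% of all tested. DN exceeded DP by 0.82 for miR-211-3p (95% interval -0.50 to 2.14, limma adjusted p = 0.339), 0.75 for miR-5126 (-0.30 to 1.79, adjusted p = 0.276) and 0.51 for miR-5128 (-1.22 to 2.24, adjusted p = 0.671). It exceeded DP by 0.28 for miR-721 (-0.85 to 1.40, adjusted p = 0.727) and 0.14 for miR-706 (-0.94 to 1.22, adjusted p = 0.843), and miR-3472 was at or near the floor in both. All 3 DN arrays lay above all 3 DP arrays for miR-5126 alone, beside 40.6% of all tested. Within slide 2, with 2 arrays of each stage, the difference of miR-5126 was 0.75. No test is given for it, because 2 arrays of a stage measure the spread poorly. Slide 1 holds DN 1 and DP 1 alone, where the difference was 0.74 with no test.

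The cultured line M295 lay above every thymocyte array for 5 of the 6 miRNAs, beside 42.8% of all tested, and above every primary T-ALL array for none, beside 23.1%. It exceeded the mean of primary T-ALL by 1.30 for miR-5126, 1.05 for miR-211-3p and 0.44 for miR-5128 on the log2 scale. It was below that mean by -1.10 for miR-3472 and by -1.24 for miR-721. For miR-706 its mean over probes was at the floor and below every primary T-ALL array, so no size is given. M295 had 257 miRNAs above background, more than any primary array. There is 1 array of M295, so these values have no replicate check.

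The miRNAs with the most similar pattern were sought among all tested by Pearson's r of scaled log2 intensity over the 12 primary arrays, which share scaling and the split between tissues. For miR-721 they were miR-3472 (r = 0.979), miR-5109 (0.965) and miR-1940 (0.958). For miR-3472 they were miR-721 (0.979), miR-5109 (0.966) and miR-3470a (0.954). For miR-5126 they were miR-2861 (0.993), miR-149-3p (0.990) and miR-1982-5p (0.990). For miR-211-3p they were miR-5126 (0.985), miR-1982-5p (0.978) and miR-2861 (0.973). For miR-5128 they were miR-3081-5p (0.985), miR-1897-5p (0.982) and miR-1895 (0.978), and for miR-706 miR-1895 (0.988), miR-3102-5p.2-5p (0.985) and miR-1892 (0.985).

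miR-721 moved apart from the miRNAs that carry its seed. miR-130b-3p, which lies on another chromosome and has the same first 9 bases as printed above, was lower in T-ALL by -0.47 (SE 0.18, limma adjusted p = 0.0453), and miR-301a-3p by -0.43 (SE 0.12, adjusted p = 0.0126), where miR-721 was higher by 3.23. Another carrier of the seed, miR-130a-3p, was on the array but below the filter for testing. The entries miR-130c, miR-6341 and miR-6389 of the sequence table share the seed as well and have no name on this array.

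Names numbered near these miRNAs were described in the same comparison, with the 6 themselves left out. In the number series from miR-680 to miR-721, 8 of 40 names on the array were tested, 6 were higher in T-ALL and 1 lower, with a median difference of 1.17. miR-714 (2.96) and miR-680 (1.83) rose most, and miR-720 fell (-0.44). From miR-3470 to miR-3475, 4 of 8 were tested and 4 were higher, with a median of 1.43, led by miR-3474 (2.32) and miR-3470a (1.44). From miR-5097 to miR-5136, 12 of 40 were tested and 9 were higher and 0 lower, with a median of 1.22, led by miR-5109 (2.10) and miR-5105 (1.79). Over all 229 tested miRNAs 72 were higher and the median was -0.12. These series were chosen with earlier results of the same arrays known.

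Markers of cell types were given beside the 6 miRNAs, because the sorted cells of thymus and spleen could hold others, and in bulk samples fewer cells of a type and less RNA per cell cannot be told apart. The DP thymocyte markers miR-181a-5p, miR-181b-5p and miR-181d-5p were present on all 12 arrays, and miR-181a-5p was higher in DP (1.88) than in DN (-0.83), as is known for thymocytes. miR-181b-5p was also higher in DP (0.36 and -0.97), and miR-181d-5p was alike in both (-2.63 and -2.68). In T-ALL 3 of 3 were lower than in thymocytes, beside 25.8% of all tested, and miR-181a-5p ran from -2.52 to 0.11. From DN alone, LS differed by 0.19 for miR-181a-5p, 0.27 for miR-181b-5p and -0.51 for miR-181d-5p, and ES by -0.49, -0.58 and -0.96. Of 4 erythroid markers 3 were on the array and 2 were tested, with neither called. Their summed level was -6.45 to 0.03 in thymocytes and -5.98 to 0.69 in T-ALL, highest on LS 2, and miR-144-5p was above background on no array. Within thymocytes miR-451 averaged -0.26 in DN and -5.89 in DP, and miR-144-3p averaged -4.40 and -7.59. Of 3 myeloid markers 2 were tested and neither called, with a sum of 2.13 to 2.87 in thymocytes and 2.17 to 4.03 in T-ALL, highest on ES 3. The thymocyte sum is nearly all miR-142-3p (2.12 to 2.87), which is known from blood cells in general, T cells included, so that the sum is no measure of myeloid cells alone.

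The defining myeloid marker miR-223-3p was above background on 3 thymocyte arrays and on 1 T-ALL array, ES 3, where it reached 2.85. Within thymocytes it averaged -5.10 in DN and -7.13 in DP, whereas miR-142-3p averaged 2.28 in DN and 2.65 in DP. ES 3 is also the ES array on which each of the 6 miRNAs was highest, and the part of myeloid cells in that was not tested. On LS 1, where 5 of the 6 miRNAs were highest, and on all other T-ALL arrays miR-223-3p was not above background. Both markers of mature lymphocytes were tested: miR-342-3p was higher in T-ALL by 1.99 (limma adjusted p = 0.0002), miR-150-5p differed by -1.13 (adjusted p = 0.277), and their sum was -3.38 to -2.13 in thymocytes and -2.72 to -0.69 in T-ALL. The part of mature lymphocytes in the levels of the 6 miRNAs was not tested. Of 4 endothelial and stromal markers, miR-126-3p was above background on 3 thymocyte and 0 T-ALL arrays, and averaged -4.66 in DN and -6.60 in DP. The other 3 were at the floor on all 12, and the sum was -6.58 to -4.56 in thymocytes and -7.59 to -5.88 in T-ALL. The part of erythroid, myeloid or endothelial cells in the DN levels of the 6 miRNAs was not tested.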

How the data were processed

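Total RNA prepared with the miRNeasy kit was labelled with Cy3 and hybridised to arrays named after miRBase v18, per the labels. Scanner software was Agilent Feature Extraction, version 10.7.3.1, per the file headers. The deposited scanner files hold a background-subtracted intensity per spot, not scaled between arrays. The authors' deposited value table is on the log2 scale and, from comparison with the scanner files, quantile normalized. Per the submitters' processing notes the tools were RMA, affy, MAS5 and GCOS, with no versions or roles.

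Control and outlier spots were removed (4.03 to 8.60% per array). Means were taken over the spots of a probe and then over the probes of a miRNA. Values were scaled to the array's 75th percentile among the 108 mouse miRNAs that all 12 primary arrays measured above background, and a floor of -7.59 was set on the log2 scale. A miRNA is above background where at least 50% of the spots of 1 probe or more are marked well above it. The 12 arrays were fitted in limma 3.58.1 under R 4.3.3 (files read with data.table, version 1.17.8) with a mean for each group, and Benjamini-Hochberg adjustment ran over all 229 tested miRNAs. The number of arrays limits the precision. M295 stayed out of the fit. The fit was tested on simulated data.

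The members and all lists were chosen with earlier results of these data known. Beyond the 6 miRNAs, the text names by rule the 3 most similar miRNAs of each, carriers of the same seed, the opposite arm, the 2 largest rises and falls of each number series, and the markers. Alternatives were other scalings, background models, floors, filters, probe summaries, single probes, slides, replicate blocks, the authors' values and leaving out each array. Replicate numbers did not pair ES with LS or DN with DP: deviations of same-numbered arrays correlated at 0.18, -0.06 and -0.34 for ES with LS and at -0.01, 0.46 and 0.23 for DN with DP. For DP with LS they correlated at 0.22, 0.18 and 0.50, and no test is given here for that comparison.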

Additional observations from a re-analysis of the deposited data

How the results depend on the processing

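The 6 miRNAs were chosen for being higher in T-ALL than in thymocytes, so the direction under other settings is a description. Within each slide and without any 1 array it had to hold, because every T-ALL array lay above every thymocyte array. Over value settings, slides and arrays left out, the log2 differences were 1.70 to 3.49 for miR-721, 1.51 to 1.95 for miR-5126 and 1.69 to 2.70 for miR-5128. They were 1.73 to 2.41 for miR-211-3p, 0.45 to 2.00 for miR-706 and 0.80 to 3.31 for miR-3472, all positive. The exceptions are the first and second probes of miR-706 taken alone, at 0.00 and 0.11, both above background on no array. Signal over background limits miR-706, miR-3472 and, in thymocytes, miR-721. The number of miRNAs called in T-ALL against thymocytes was 30 within slide 1 and 110 to 154 without 1 array (131 in the fit as reported).

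For LS against ES, limma called 6 miRNAs, 2 with quantile normalization, 0 without the filter (42 at an unadjusted p under 0.05), 3 with slide as a block, 0 within slide 1 (56 unadjusted), 3 with the replicate block and 1 to 55 without 1 array (55 without ES 3). Within slide 2 the count was 114, which compares 1 array of each stage with the spread taken from the thymocyte arrays alone and is no replicate test. Scaling by all mouse miRNAs moved the median of all tested from 0.28 to -0.38 and the calls from 5 higher and 1 lower to 0 and 9. Under it miR-5128 was at -0.53 and miR-706 at -0.0063, which relative to that median are -0.16 and 0.37. miR-5128 was at -0.018 with quantile normalization, at -0.082 in the authors' deposited table and between -0.48 and 1.14 without 1 array, and the second probe of miR-706 gave -0.017. Within slide 2 miR-721 was at -0.73, miR-5126 at -0.99, miR-5128 at -2.71, miR-211-3p at -1.21 and miR-706 at -1.12. The cause of these changes was not tested.

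For DN against DP, 67 were called, 43 with normexp, 18 within slide 1 (1 array of each stage, with the spread of the T-ALL arrays), 123 within slide 2 and 44 to 101 without 1 array (44 without DP 3, 101 without ES 3). The split was 24 higher and 43 lower, and 29 and 29 with scaling by all mouse miRNAs. miR-721 ran from -0.041 to 0.49 without 1 array. miR-3472, near 0 in the fit as reported, was at 0.11 with scaling by all mouse miRNAs, 0.10 with quantile normalization, 0.22 with normexp, 0.20 in the authors' deposited table, 0.49 with a lower floor, 0.035 with the median over probes, 0.071 with its second probe alone and -0.13 to 0.11 without 1 array. M295 minus the mean of T-ALL was -0.35 for miR-5128 with scaling by all mouse miRNAs. The replicate block left 3 calls in LS against ES, 61 in DN against DP and 125 in T-ALL against thymocytes. With miR-3472 left out, it called none of the other 5 in either comparison of stages.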
